A study of Homo sapiens with 9 samples.

Results

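The nuclear genes of the respiratory chain were examined in U2-OS cells, an established human osteosarcoma line. Members were the nuclear protein-coding genes whose GENCODE symbol begins with NDUFA, NDUFB, NDUFC, NDUFS or NDUFV and a digit, is SDHA, SDHB, SDHC or SDHD, or begins with UQCR, with COX and a digit, or with ATP5. The rule used symbols only and no measured value. It found 98 genes among the 60609 gene identifiers of the count tables. By complex, 37 belonged to complex I, 4 to complex II, 9 to complex III, 28 to complex IV and 20 to complex V. NDUFA4 and NDUFA4L2 were placed with complex IV, because the NDUFA4 protein is now known as a subunit of that complex. The rule does not take CYC1, CYCS or NDUFAB1, which are also nuclear genes of the chain, and these were followed beside it.

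The respiratory chain sits in the inner mitochondrial membrane. Complexes I and II pass electrons from NADH and succinate to ubiquinone, complex III passes them on to cytochrome c, and complex IV passes them to oxygen. Complexes I, III and IV pump protons out of the matrix, and complex V, the ATP synthase, lets the protons return and makes ATP. Most subunits are encoded in the nucleus and imported, whereas the core membrane subunits of all complexes other than complex II include proteins encoded by mitochondrial DNA. NCBP2 binds the cap at the 5′ end of nuclear transcripts together with NCBP1, and so acts on transcripts of nuclear genes rather than on those of mitochondrial DNA, which carry no such cap.

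The series compared clones of U2-OS that overexpress NCBP2 with clones that carry an empty vector. Clone A1 and clone A4, both overexpressing NCBP2, gave 3 libraries each, with the replicate letters A, B and C. The vector group held 3 libraries, each from a clone of its own, with the same letters. All cells were cultured in DMEM with serum, and RNA was sequenced after removal of ribosomal RNA. The labels name no promoter for the transgene, and they do not say whether the libraries of a clone came from separate cultures. The NCBP2 arm therefore rests on 2 clones, and p-values measure the spread between libraries, which may be technical.

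NCBP2 was read first, as a check on the labels. It ranged from 298.9 to 348.4 CPM (CPM is a count scaled to the library total, here on totals scaled by TMM, the trimmed mean of M-values) in clone A1, from 456.2 to 1035 CPM in clone A4 and from 90.6 to 98.4 CPM in the vector libraries. All 6 libraries of the NCBP2 arm lay above all 3 vector libraries, and the Benjamini-Hochberg adjusted p by edgeR was 0.0327 for clone A1, 0.000417 for clone A4 and 0.123 for the arm as a whole. Gene counts per library ran from 29234022 to 50554080, and members held 0.371% (vector replicate C) to 0.427% (clone A4 replicate B) of them. The osteoblast and mesenchymal markers RUNX2, COL1A1, SPARC and VIM were each above 182 CPM in all 9 libraries, and TNFRSF11B was at 13.6 to 34.7 CPM. The other markers of this list were low, with ALPL, an osteoblast enzyme, at 1.20 to 4.12 CPM and COL1A2 at 0 to 1.151 CPM. Of the markers of other cell types, CD3E and HBB had no counts, and the others reached at most 5.58 CPM, for EPCAM in clone A4 replicate A. Clone A1 replicate A stood apart, with the lowest gene counts and 21823 genes detected against 25390 to 29787 in the others, so the counts and medians of members, and the members named between the clones, are also given without it. In bulk libraries, fewer cells expressing a gene and less RNA per cell cannot be told apart.

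Nearly all of the chain was expressed. Of the 98 members, 88 passed the filter on low counts that edgeR applies by group. Because the filter uses counts, those 88 are the expressed members and not the whole set. The 10 that did not pass were the tissue-restricted isoforms COX4I2 and COX6A2 with 0 counts over the 9 libraries, COX7A1 with 4, COX7B2 and COX8C with 5 each, NDUFA4L2 with 14 and COX6B2 with 18. The others were the complex I subunit NDUFA7 with 47 counts and the readthrough transcripts NDUFC2-KCTD14 with 0 and ATP5MF-PTCD1 with 35. Both readthroughs share over 50% of their exon bases with the genes they join, and reads that fit more than 1 gene are not counted. NDUFA7 shares 32.5% of its exon bases with another gene on the same strand.

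Levels within complexes were compared as CPM per kb of merged exons, averaged over the 9 libraries. In complex I, which oxidises NADH, the accessory subunits NDUFS5, at 74.8 ± 6.03 CPM per kb (SD, n = 9), and NDUFA6, at 61.4 ± 7.31, were highest. NDUFA11, at 0.308 ± 0.181, and NDUFA13, at 0.0699 ± 0.0685, were the lowest that passed the filter. NDUFA11 shares 9.65% and NDUFA13 21.0% of exon bases with other genes on the same strand. The part that reads lost to this overlap have in their levels was not tested. Both of these low members are accessory subunits encoded on chromosome 19. The 7 core subunits of complex I, which carry the flavin and the iron-sulfur clusters, had a median of 2.85 CPM per kb and the 28 accessory subunits that passed had a median of 7.09.

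In complex II, which oxidises succinate, the membrane anchors SDHC (62.2 ± 8.34 CPM per kb) and SDHD (38.7 ± 5.71) exceeded the iron-sulfur subunit SDHB (17.7 ± 1.97) and the flavoprotein SDHA (1.10 ± 0.168). The order of these 4 was the same per kb of the canonical transcript. SDHA and SDHC have 4 pseudogenes each named after them, SDHD has 6 and SDHB has 1. Reads that align to several places, 6.80% to 16.3% of all reads, were not counted. The part that such reads have in the levels of these 4 genes was not tested. In complex III the small accessory subunits UQCR10 (41.0 ± 6.62 CPM per kb) and UQCRH, the hinge protein (30.7 ± 4.69), were highest. The retrogene copy UQCRHL (0.506 ± 0.188) and UQCR11 (2.53 ± 0.417) were lowest. The core proteins UQCRC1 and UQCRC2 and the Rieske iron-sulfur protein UQCRFS1 had a median of 13.6 CPM per kb.

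In complex IV, which reduces oxygen, the small subunits COX7C (45.7 ± 5.77 CPM per kb) and COX8A (42.8 ± 13.5) were highest, and the assembly factors COX19 (2.75 ± 0.485) and COX16 (2.27 ± 0.659) were lowest. The 12 nuclear subunits that passed the filter had a median of 28.9 CPM per kb, and the 9 assembly factors, which insert heme and copper or build the enzyme, had a median of 4.35. In complex V the catalytic beta subunit ATP5F1B (82.4 ± 10.5 CPM per kb) and the central-stalk subunit ATP5F1C (60.6 ± 11.5) were highest. The delta subunit ATP5F1D (0.973 ± 0.578), also on chromosome 19, and ATP5MGL (1.05 ± 0.361), a copy of the membrane subunit ATP5MG, were lowest. These ranks depend on the length used. With the canonical transcript in place of merged exons, NDUFB4 replaced NDUFA6 at the top of complex I and NDUFA9 replaced NDUFA11 at the bottom. In complex IV, COX7A2 replaced COX8A and COX18 replaced COX19, and in complex V the peripheral-stalk subunit ATP5PD replaced ATP5F1B.

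Levels were then summed by complex. Complex I summed to 1153 ± 27.7 CPM (SD, n = 3) in clone A1, 1076 ± 109 in clone A4 and 1068 ± 14.9 in the vector libraries. For complex II the sums were 288 ± 18.1, 257 ± 46.4 and 293 ± 7.48 CPM in the same order. Those of complex III were 353 ± 21.3, 341 ± 18.03 and 321 ± 30.9 CPM. The 3 libraries of clone A1, at 1122 to 1173 CPM, lay above the 3 vector libraries, at 1055 to 1084 CPM, for complex I. Clone A1 and vector overlapped for the other complexes, and clone A4 overlapped both groups for all 5 complexes. Of all single genes tested, 14.2% did not overlap between clone A1 and vector, with 6.18% higher in clone A1. That share is for single genes, and none was computed for sums over sets of genes, which may spread less. Complex IV summed to 1046 ± 58.8, 1003 ± 102 and 1003 ± 62.7 CPM, and complex V to 1364 ± 45.1, 1267 ± 96.9 and 1305 ± 81.7 CPM. Clone A4 replicate B was the highest of its group for every complex, with 1201 CPM for complex I against 1031 and 996 CPM in replicates A and C. Without clone A1 replicate A the clone A1 sums of complexes I to V were 1144, 297, 365, 1012 and 1344 CPM. No test was made of these sums.

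**Figure D1:**
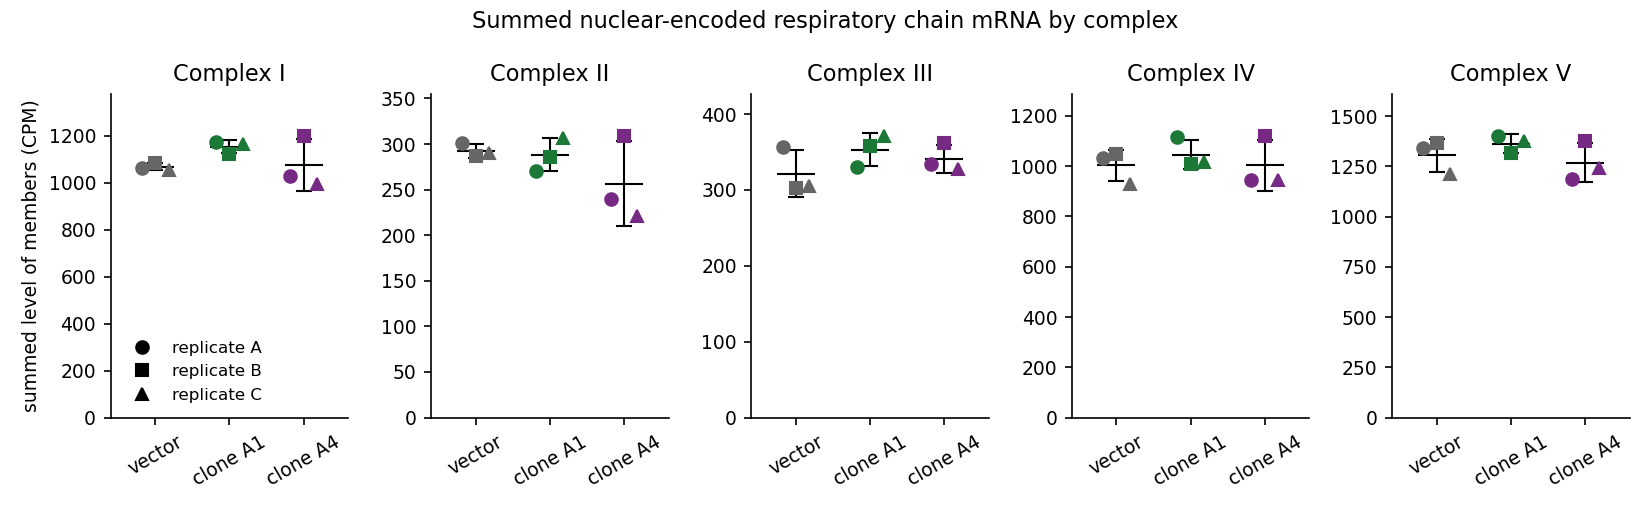
Summed level of the members of each complex in CPM (vertical axis, from 0) for the 3 vector, 3 clone A1 and 3 clone A4 libraries. Points are libraries with the marker showing the replicate letter, and bars are the mean and SD. Clone A1 (1122 to 1173 CPM) lies above vector (1055 to 1084 CPM) for complex I and overlaps it in the other panels. Of all single genes tested, 14.2% did not overlap between these 2 groups, and no such share was computed for sums of genes. Clone A4 replicate B is the highest of its group in each panel, and no test was made of the sums.

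Several subunits of the chain have paralogs that are restricted to tissues such as heart, skeletal muscle, lung or testis, and the members hold 10 families of paralogs in all. In U2-OS the common form accounted for nearly all counts in the families of complex IV. COX4I1 (9.17 ± 1.93 CPM per kb of merged exons, SD, n = 9), the regulatory subunit that contacts the catalytic core, was found beside COX4I2 with no count in any library. COX6A1 (16.0 ± 1.36) was found beside COX6A2, its heart and muscle form, also with no count. A count of 0 over the 9 libraries allows a pooled level of up to 3 counts, or 0.00784 CPM. Against that floor COX6A1 was at least 970-fold higher than COX6A2 and COX4I1 at least 793-fold higher than COX4I2, per kb of merged exons and for counting error only.

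COX6B1 was at 40.5 CPM per kb against 0.0124 for the testis form COX6B2, COX7B at 13.7 against 0.0166 for COX7B2, and COX8A at 42.8 against 0.0217 for COX8C. COX7A2 (42.4) and COX7A2L (28.6), a factor in supercomplex assembly, both exceeded the muscle form COX7A1 (0.0171). NDUFA4 was at 32.0 CPM per kb against 0.0116 for NDUFA4L2, a form known to be induced in low oxygen. COX6B2 had 12 of its 18 counts in clone A4 replicate B, and NDUFA4L2 had 7 of its 14 in vector replicate B. In complex V the 3 genes ATP5MC1, ATP5MC2 and ATP5MC3, which encode the same mature c-ring protein with different import peptides, were all expressed, at 6.88, 11.4 and 10.8 CPM per kb. ATP5MG, at 1.40 CPM per kb, has 8 pseudogenes named after it and was close to its copy ATP5MGL, at 1.05, whereas per kb of the canonical transcript it was at 10.5 against 1.05.

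**Figure D2:**
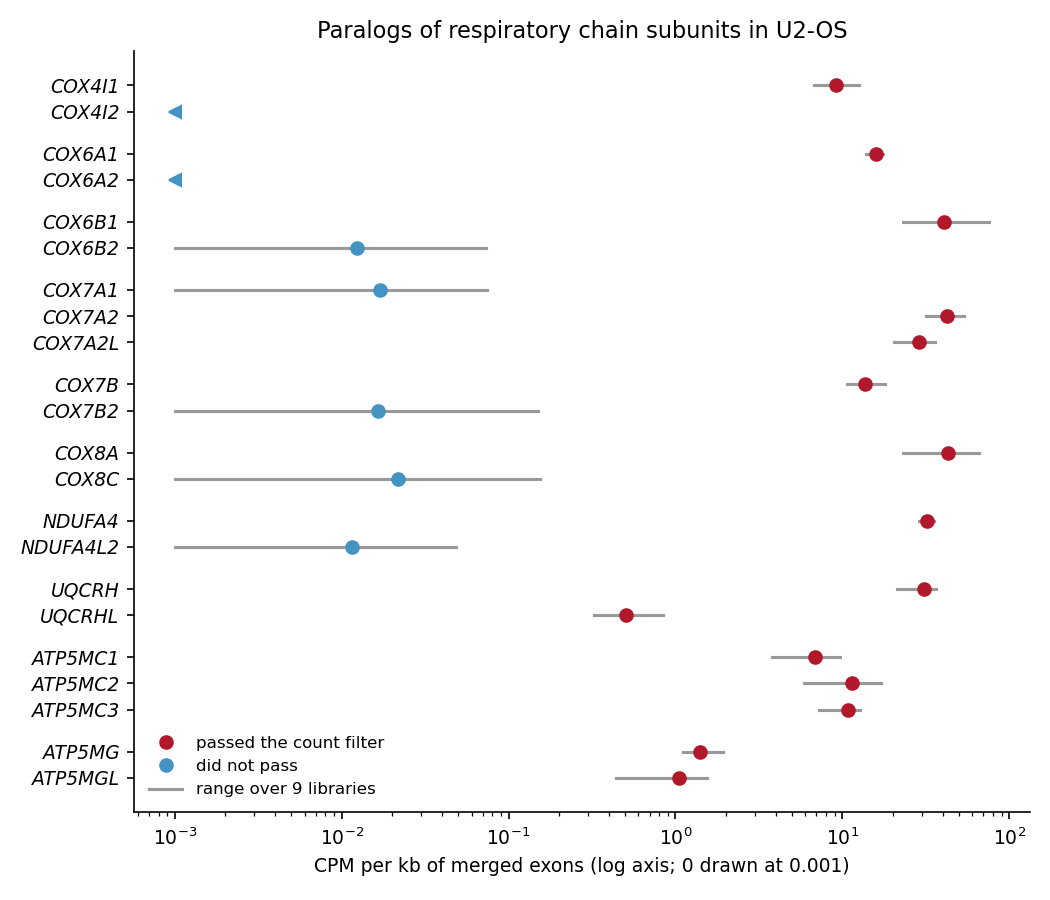
Level of each paralog in CPM per kb of merged exons (horizontal log axis), as the mean over 9 libraries with the range as a line and 0 drawn at 0.001. Red points passed the count filter and blue ones did not. COX4I2 and COX6A2 have no count in any library, and the other blue points lie at or below 0.0217.

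The starts of 2 such pairs are shown as examples, and other pairs also differ far in level. Each line below holds 100 bases before and 20 bases from the annotated start on, from the RefSeq promoters of GRCh38.p14, with any motif searched in capitals. COX6A1 lies at chr12:120438013-120438132 on the plus strand and COX6A2 at chr16:31428341-31428460 on the minus strand. COX8A lies at chr11:63974520-63974639 on the plus strand and COX8C at chr14:93347082-93347201 on the plus strand.
COX6A1: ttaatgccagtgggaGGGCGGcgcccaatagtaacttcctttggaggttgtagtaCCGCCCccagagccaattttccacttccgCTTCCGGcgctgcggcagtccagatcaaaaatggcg
COX6A2: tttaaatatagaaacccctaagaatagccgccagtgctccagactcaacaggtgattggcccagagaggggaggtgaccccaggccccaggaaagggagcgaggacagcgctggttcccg
COX8A: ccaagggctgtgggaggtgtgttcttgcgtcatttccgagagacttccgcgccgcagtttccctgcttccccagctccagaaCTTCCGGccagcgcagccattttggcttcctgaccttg
COX8C: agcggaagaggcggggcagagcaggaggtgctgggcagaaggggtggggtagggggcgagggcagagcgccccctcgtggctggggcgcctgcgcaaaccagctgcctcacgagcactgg
The capitals in COX6A1 are an ETS core on the reverse strand and SP1 boxes on both strands, and in COX8A an ETS core on the reverse strand. The windows of COX6A2 and COX8C held none of the motifs searched. Over the full 300 bases of the promoter, COX6A1 had 22 CpG pairs against 5 in COX6A2, and COX8A had 18 against 10 in COX8C. Those 300 bases also held a TATA box in COX6A2, an NRF1 core in COX6A1 and an SP1 box in COX8A. Pairs not shown did not all have more CpG pairs in the common form. COX7B had 14 against 8 in COX7B2, whereas COX6B1 had 16 against 31 in COX6B2. The promoter of COX6B1 held an ETS core and no SP1 box, and that of COX6B2 an SP1 box and no ETS core.

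Promoters of 300 bases (250 before the start and 50 after) were at hand for 78 of the 98 members. The motifs searched on both strands were the NRF1 core CGCATGCG, the ETS core CCGGAAG, the YY1 core AAGATGGC, the SP1 box GGGCGG and the TATA box TATAAA, and none of them contains another. NRF1, the ETS factor GABP and YY1 are known regulators of nuclear genes for mitochondrial proteins. The members that passed the count filter had 89 promoters, from 72 genes. Of these 89, 15.7% held the NRF1 core, 30.3% the ETS core and 14.6% the YY1 core. Among all 35116 promoters of the table the shares were 2.02%, 10.3% and 2.89%, and among the 22199 of protein-coding genes 2.49%, 12.8% and 3.53%. The SP1 box was in 64.0% of these member promoters against 56.3% of protein-coding ones, and the TATA box in 6.74% against 9.47%. None of the 6 promoters at hand of members that did not pass held the NRF1 or the ETS core. Of these 6, 1 held the YY1 core, 3 the SP1 box and 2 the TATA box. These are counts of letters in fixed windows, with no test. The wider sets of promoters were not filtered on counts, so they also hold genes not expressed here. For 71 of the 95 member promoters, the last 25 bases were found in the canonical transcript.

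Several of the low members lie on chromosome 19. Of the 9 members there that passed the filter, 6 averaged under 5 CPM, against 4 of the 79 elsewhere. Per kb of canonical transcript the medians were 3.13 and 33.0 CPM. Transcripts of these chromosome 19 members had a median GC content of 61.6% against 46.0% for the others. The 979 protein-coding genes tested on that chromosome also had a lower median, at 2.87 CPM per kb of canonical transcript against 6.57 elsewhere. Across the 88 members, GC content and log level per kb of canonical transcript had a Pearson correlation of -0.32, and across 13970 protein-coding genes of -0.27. These are descriptions across genes of the same libraries.

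GC content also went with differences between libraries. The 14 members with transcripts over 55% GC had a median deviation from their own mean log2 CPM of -0.72 in clone A1 replicate A and of 0.80 in clone A4 replicate C. The 32 members with 45% GC or less deviated by 0.30 and -0.26 in the same libraries. Vector replicate B, at 0.52, and vector replicate C, at -0.42, also lay on opposite sides for members over 55% GC. Medians of all protein-coding genes over 55% GC lay on the same sides in these 4 libraries, at -0.77, 0.61, 0.46 and -0.21. For example, the chromosome 19 subunit ATP5F1D, at 69.5% GC, had 2.06, 3.42 and 1.73 CPM in the vector libraries A, B and C, against 1.23, 1.75 and 2.704 for clone A1 and 1.38, 0.569 and 4.86 for clone A4. The part that GC content has in any difference between groups was not tested.

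**Figure D3:**
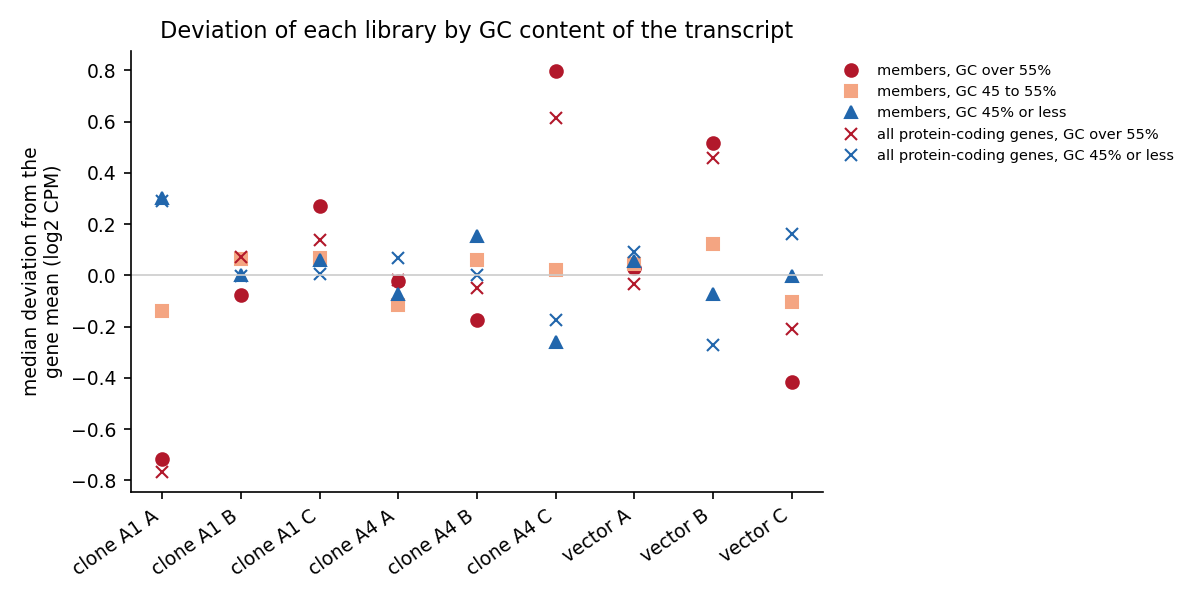
Median deviation of members from their own mean log2 CPM (vertical axis) in each of the 9 libraries (horizontal axis), with members split by transcript GC content, and crosses for all protein-coding genes. Members over 55% GC reach -0.72 in clone A1 replicate A and 0.80 in clone A4 replicate C, and the crosses lie on the same side in both.

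The first comparison asked which members differ between the NCBP2 arm, with 6 libraries, and the 3 vector libraries. No member passed an adjusted p of 0.05 by edgeR's quasi-likelihood test over 21682 genes, of which 0.0184% passed. DESeq2 called 0 members and limma voom with quality weights called 1, ATP5MC3 at an adjusted p of 0.0491. At an unadjusted p under 0.05 edgeR had 3 members, 2 higher and 1 lower, or 3.41% of the 88, against 5.71% of all genes (2.75% higher and 2.96% lower). The same 3 members were those whose groups did not overlap, against 3.74% of all genes (1.47% higher and 2.26% lower). The median log2 fold change of the 88 was 0.05, against 0.02 for all genes tested, and 59.1% of members lay above 0 against 53% of all genes. Medians by complex were 0.05 for complex I, -0.0048 for II, 0.06 for III, 0.03 for IV and 0.08 for V. The 95% interval lay within a 2-fold change either way for 79 of the 88 members. Without clone A1 replicate A the median was 0.03, no member was called and 2 had an unadjusted p under 0.05.

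ATP5MC3 encodes the c subunit whose ring turns in the membrane sector of ATP synthase. Its position in GRCh38 is chromosome 2, minus strand, 175176258 to 175181710. Its level was 28.2, 42.3 and 31.5 CPM in the vector libraries A, B and C, against 46.2, 43.6 and 45.4 for clone A1 and 49.9, 47.7 and 42.3 for clone A4. All 6 libraries of the arm lay above the vector libraries, although clone A4 replicate C and vector replicate B were nearly equal. The log2 fold change of the arm was 0.43 (SE 0.163, unadjusted p 0.0196, edgeR adjusted p 0.706). The adjusted p lay between 0.0491 and 1 over 17 alternatives. The paralogs ATP5MC1 and ATP5MC2 had log2 fold changes of -0.46 (SE 0.230) and -0.25 (SE 0.263) in the arm.

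ATP5PD, the d subunit of the peripheral stalk, was the lower member, and it is named here after its values were seen. ATP5PD had 135.3, 132.5 and 120.2 CPM in the vector libraries A, B and C, against 100.8, 101.8 and 116.2 for clone A1 and 104.0, 117.9 and 99.8 for clone A4. Clone A4 replicate B and vector replicate C were the closest pair across the groups. The log2 fold change was -0.28 (SE 0.126, unadjusted p 0.0470, edgeR adjusted p 0.857). NDUFA13, an accessory subunit of complex I also known as GRIM-19, rested on 74 counts in all. It had 2, 4 and 0 counts in the vector libraries A, B and C, against 4, 4 and 12 for clone A1 and 17, 5 and 26 for clone A4. Its log2 fold change of 2.59 had a 95% interval from 0.04 to 5.15 (edgeR adjusted p 0.857).

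Each clone was then compared with the vector libraries, in a fit with 3 groups. Both comparisons use the same 3 vector libraries, so their values are not independent of each other. In clone A1, 0.0646% of all genes passed an adjusted p of 0.05 and no member did by edgeR, DESeq2 or voom. At an unadjusted p under 0.05, edgeR had 1 member, which was higher, or 1.14% of the 88, against 7.51% of all genes (3.24% higher and 4.27% lower). DESeq2 had 2 such members and voom 5, or 2.27% and 5.68%, against 9.56% and 14.1% of all genes. The libraries of clone A1 and vector did not overlap for 13 members, 9 higher and 4 lower, or 14.8%, against 14.2% of all genes (6.18% higher and 8.06% lower). The median log2 fold change of members was 0.06 against -0.02 for all genes, and 58% of members lay above 0 against 48.4% of all genes. By complex the medians were 0.05, 0.11, 0.14, 0.05 and 0.06 for complexes I to V. The interval lay within 2-fold for 72 of the 88. Without clone A1 replicate A, members had a median of 0.08 and 1 member had an unadjusted p under 0.05.

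The member past the unadjusted threshold in clone A1 was UQCRC2, a core protein of complex III. It lies on chromosome 16 at 21953288 to 21983660 on the plus strand. Its level was 56.9, 45.9 and 57.6 CPM in the vector libraries A, B and C, against 75.2, 73.4 and 77.8 for clone A1 and 57.2, 61.0 and 56.3 for clone A4. The clone A1 libraries lay close together and above all others, and clone A4 overlapped the vector libraries. The log2 fold change was 0.50 in clone A1 (SE 0.160, unadjusted p 0.00870, edgeR adjusted p 0.406) and 0.12 in clone A4. Without clone A1 replicate A it was 0.51 in clone A1 (edgeR adjusted p 0.600), and over 17 alternatives the adjusted p ranged from 0.109 to 0.886.

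In clone A4 against vector, 0.115% of all genes passed the adjusted threshold, and no member did by edgeR or voom. DESeq2 called 1, NDUFA9, at an adjusted p of 0.0470. Unadjusted p was under 0.05 by edgeR for 3 members, 2 higher (ATP5MC3 and NDUFA13) and 1 lower (NDUFA9), again 3.41% of the 88, against 5.25% of all genes (2.5% higher and 2.75% lower). The libraries did not overlap for 7 members, 4 higher and 3 lower, or 7.95%, against 12.1% of all genes (6.2% higher and 5.86% lower). The median log2 fold change was 0.03 for members and 0.03 for all genes, and 52.3% of members lay above 0 against 53.6% of all genes. By complex the medians were 0.08, -0.13, 0.09, -0.07 and -0.08 for complexes I to V. The interval lay within 2-fold for 70 of the 88. All 4 peripheral-stalk subunits of complex V were below 0, between -0.27 and -0.05, with none past the test. All 3 core subunits of complex III were above 0, between 0.05 and 0.30, also with none past it. Both groups are small and are named after their values were seen.

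The 2 clones were last set against each other, a comparison that needs no vector library. Of all genes, 0.161% passed the adjusted threshold and no member did by edgeR, while DESeq2 and voom each called NDUFA9. By edgeR 5 members had an unadjusted p under 0.05, 4 lower in clone A4 and 1 higher, or 5.68% of the 88, against 6.63% of all genes (3.81% higher and 2.82% lower). The libraries did not overlap for 6 members, 1 higher and 5 lower, or 6.82%, against 13.6% of all genes (7.92% higher and 5.72% lower). The median log2 fold change was -0.03 for members and 0.04 for all genes, and 45.5% of members lay above 0 against 53.2% of all genes. By complex the medians were -0.03, -0.21, 0.10, -0.06 and 0.00068 for complexes I to V. All 4 subunits of complex II lay below 0, between -0.30 and -0.03, with none past the test. All 3 c-ring genes of complex V lay above 0, between 0.05 and 0.26, also with none past it. The interval lay within 2-fold for 72 of the 88. Without clone A1 replicate A the median was -0.04, with 5 members at an unadjusted p under 0.05.

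NDUFA9, an accessory subunit at the joint of the membrane arm and the matrix arm of complex I, gave the smallest p of any member. It lies on chromosome 12 at 4649095 to 4694317 on the plus strand. Its level was 19.95, 22.8 and 23.9 CPM in the vector libraries A, B and C, against 32.5, 24.95 and 29.4 for clone A1 and 12.5, 15.4 and 9.58 for clone A4. All clone A4 libraries lay below, and all clone A1 libraries above, every vector library. Clone A4 was lower than clone A1 by a log2 fold change of -1.21 (SE 0.225, 95% interval -1.70 to -0.72, unadjusted p 0.000149, edgeR adjusted p 0.0736). Against vector it was -0.83 in clone A4 (SE 0.223, adjusted p 0.379) and 0.38 in clone A1 (SE 0.222, adjusted p 0.744). Without clone A1 replicate A the difference between the clones was -1.13 (adjusted p 0.151). Over 17 alternatives the adjusted p of that difference ranged from 0.000109 to 0.376, under 0.05 in 3, and that of clone A4 against vector from 0.0470 to 1, under 0.05 in 1. NDUFA9 shares 10.6% of its exon bases with other genes on the same strand.

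NDUFA8, an accessory subunit of complex I that is held by disulfide bonds in the intermembrane space, has its place at 122144058 to 122159779 of chromosome 9 (minus strand). It had 11.2, 10.4 and 8.91 CPM in the vector libraries A, B and C, against 13.6, 13.9 and 11.9 for clone A1 and 7.87, 9.33 and 8.82 for clone A4. Clone A1 lay above both other groups, and clone A4 overlapped the vector libraries. The log2 fold change of clone A4 against clone A1 was -0.60 (SE 0.223, unadjusted p 0.0197, edgeR adjusted p 0.591), and -0.57 without clone A1 replicate A (edgeR adjusted p 0.808). ATP5PO, the subunit that joins the peripheral stalk to the catalytic head, spans 33903453 to 33915814 of chromosome 21 (minus strand). It had 34.7, 33.0 and 31.9 CPM in the vector libraries A, B and C, against 38.7, 44.1 and 38.8 for clone A1 and 28.9, 35.8 and 24.0 for clone A4. Clone A1 was again above both other groups, which overlapped. The log2 fold change between the clones was -0.46 (SE 0.191, unadjusted p 0.0337, edgeR adjusted p 0.683), and -0.49 without clone A1 replicate A (edgeR adjusted p 0.764).

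UQCRC2 was the fourth lower member in clone A4 against clone A1, at -0.38 (SE 0.159, edgeR adjusted p 0.691), and also at -0.38 without clone A1 replicate A (edgeR adjusted p 0.883). The higher member was COX6B1, a peripheral subunit of complex IV on chromosome 19. It had 45.5, 63.9 and 36.6 CPM in the vector libraries A, B and C, against 31.6, 49.5 and 55.5 for clone A1 and 62.2, 50.8 and 103.6 for clone A4. These groups overlapped, with clone A1 replicate A lowest and clone A4 replicate C highest. Its log2 fold change between the clones was 0.66 (SE 0.301, unadjusted p 0.0472, edgeR adjusted p 0.747). Without clone A1 replicate A it was 0.47 (unadjusted p 0.163, edgeR adjusted p 0.9996), no longer past the unadjusted threshold. The value without clone A4 replicate C, the highest library, is not given here. The canonical transcript of COX6B1 has a GC content of 53.5%. Members of 45% to 55% GC deviated by -0.14 in clone A1 replicate A and by 0.02 in clone A4 replicate C. Across members, deviation and GC content had Pearson correlations of -0.67 and 0.78 in these libraries. The part that GC content has in the COX6B1 difference was not tested. NDUFA11, among the lowest members of complex I, had a difference of similar size to that of NDUFA9 but in the other direction, at 1.23 (SE 0.611, 95% interval -0.10 to 2.56, edgeR adjusted p 0.770). It rested on 604 counts in all, with 0.563 to 1.20 CPM in clone A1 and 1.51 to 2.89 CPM in clone A4.

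**Figure D4:**
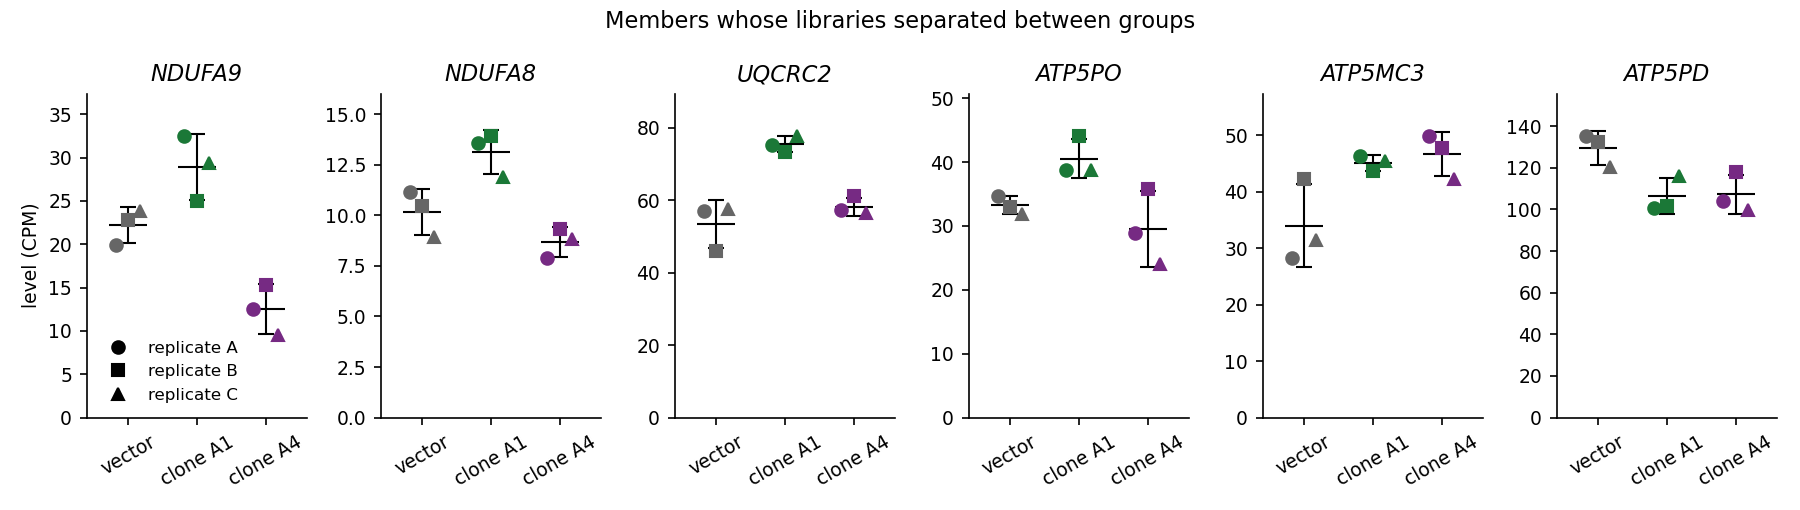
Level in CPM (vertical axes, from 0) of 6 members in the vector, clone A1 and clone A4 libraries. Points are libraries with the marker showing the replicate letter, and bars are the mean and SD of 3. NDUFA9 lies below vector in clone A4 (9.58 to 15.4 CPM) and above it in clone A1 (24.95 to 32.5 CPM), and UQCRC2, NDUFA8 and ATP5PO are highest in clone A1.

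The promoters of NDUFA9 and NDUFA8 are shown as those of 2 complex I subunits named in the comparison of the clones, and they hold different motifs near the start. NDUFA9 is read at chr12:4649014-4649133 on the plus strand and NDUFA8 at chr9:122159760-122159879 on the minus strand, again with 100 bases before the start and 20 from it on.
NDUFA9: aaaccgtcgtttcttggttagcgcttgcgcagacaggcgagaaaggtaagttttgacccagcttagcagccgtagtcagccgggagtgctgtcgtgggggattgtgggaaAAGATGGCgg
NDUFA8: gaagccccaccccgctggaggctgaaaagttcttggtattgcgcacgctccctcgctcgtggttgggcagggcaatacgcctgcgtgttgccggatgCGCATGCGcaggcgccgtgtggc
The capitals mark the YY1 core in NDUFA9, after the start, and the NRF1 core in NDUFA8, across the start.

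Each member was also set beside its genomic neighbours, the 20 tested protein-coding genes on either side. Members near the end of a chromosome had fewer, down to 23 in all for SDHA. The 40 neighbours of NDUFA9, between positions 1565993 and 6663142 of chromosome 12, had a median log2 fold change of -0.82 in clone A4 against vector. Of these, 39 lay below 0 and 5 passed the adjusted threshold. In clone A4 against clone A1 the median of the same 40 was -0.83, with 35 below 0 and 6 called, and in clone A1 against vector it was 0.03. NDUFA9 itself was at -0.83, -1.21 and 0.38 in these comparisons.

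The neighbours of ATP5MC3 had medians of 0.42 in clone A1 and 0.36 in clone A4 against vector, beside 0.41 and 0.46 for the gene itself. Those of UQCRC2 had 0.33 in clone A1 and -0.02 in clone A4, beside 0.50 and 0.12. Around COX6B1 the median was 0.51 in clone A4 against clone A1, beside 0.66 for the gene. Around NDUFA8 and ATP5PO it was -0.27 and -0.13 in that comparison, beside -0.60 and -0.46. For ATP5PD, at -0.28 in clone A1 and -0.27 in clone A4, the neighbours had -0.17 and -0.02. Across the 88 members the Pearson correlation of a member's log2 fold change with the median of its neighbours was 0.40 in clone A1, 0.45 in clone A4 and 0.67 in clone A4 against clone A1, with Spearman values of 0.56, 0.51 and 0.63. Members and neighbours share libraries, and nearby members share neighbours, so these are descriptions. The part that position has in the differences was not tested.

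**Figure D5:**
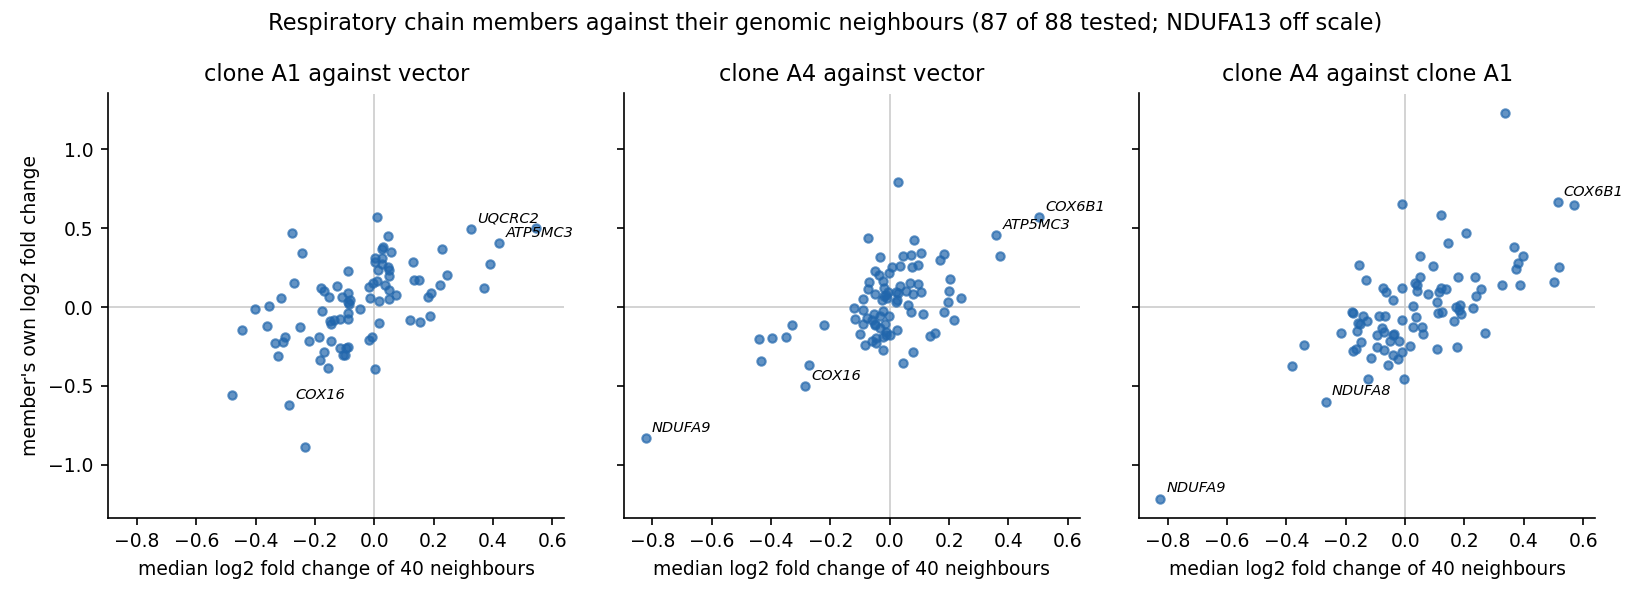
Log2 fold change of each member (vertical axis) against the median of its genomic neighbours (horizontal axis) in 3 comparisons. Neighbours number 40, or fewer near the end of a chromosome. The panels show 87 members, with NDUFA13 outside the range drawn. NDUFA9 lies at the lower left in clone A4 against vector (-0.83 beside -0.82) and in clone A4 against clone A1 (-1.21 beside -0.83).

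The 3 genes of the chain that the symbol rule leaves out showed no call by edgeR. CYC1, which encodes cytochrome c1 of complex III, had log2 fold changes of -0.09 in clone A1 and -0.06 in clone A4 against vector. CYCS, which encodes cytochrome c, had 0.42 (edgeR adjusted p 0.695) and 0.05. NDUFAB1, the acyl carrier protein of complex I, had 0.47 (edgeR adjusted p 0.724) and -0.07.

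The 13 subunits encoded by mitochondrial DNA were read beside the nuclear members. Their summed level was 27.5, 32.5 and 29.7 times that of the nuclear members in the vector libraries A, B and C, against 20.7, 24.6 and 24.9 times for clone A1 and 30.2, 29.7 and 25.7 times for clone A4. All clone A1 libraries lay below all others in this ratio, with replicate A lowest and replicates B and C closer to clone A4 replicate C. None of the 13 was called by edgeR in any comparison. Genes of mitochondrial DNA held 9.56% to 10.5% of gene counts in clone A1 libraries and 11.2% to 13.5% in vector libraries. Clone A4 libraries, at 10.3% to 13.0%, overlapped both. The 13 may therefore shift together, and the shares below do not count independent genes. In clone A1 against vector, 4 of the 13 (30.8%, against 7.51% of all genes) had an unadjusted p under 0.05 and all 4 were lower, the complex I subunits MT-ND5 (-0.64, SE 0.162, adjusted p 0.254) and MT-ND4 (-0.40), the complex III subunit MT-CYB (-0.53) and the complex IV subunit MT-CO1 (-0.27). Of the 13, 10 lay below 0 in that comparison and 3 above, up to 0.80. With clone A1 replicate A left out, 3 genes were past the unadjusted threshold, all lower. The median of the 13 was then -0.17 in place of -0.27. In clone A4 against vector the median was -0.16, and 1 gene, MT-ND3, was past the unadjusted threshold and lower (7.69%, against 5.25% of all genes). In the arm there were 2, both lower (15.4%, against 5.71%), with a median of -0.14. Between the clones 3 were higher in clone A4 and 1 was lower (30.8%, against 6.63%), with a median of 0.23, and without clone A1 replicate A there were 1 higher and 1 lower, with a median of 0.10.

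Other gene lists of the pathway gave no call by edgeR in any of the 4 comparisons. They were 50 assembly factors, 13 regulators of mitochondrial biogenesis, 14 genes of the tricarboxylic acid cycle and 17 of glycolysis, all of which passed the count filter. In clone A1 against vector, 2 assembly factors, 1 regulator, 2 genes of the cycle and 1 of glycolysis had an unadjusted p under 0.05, all higher. These were 4%, 7.69%, 14.3% and 5.88% of the lists, against 7.51% of all genes (3.24% higher). In clone A4 against vector 1 assembly factor did, which was higher, or 2% of the 50 against 5.25% of all genes, and no gene of the other 3 lists. Between the clones there were 1 higher and 1 lower assembly factor, 1 lower regulator, 1 lower gene of the cycle, and 1 higher and 2 lower genes of glycolysis, or 4%, 7.69%, 7.14% and 17.6% of the lists against 6.63% of all genes. The median log2 fold changes of the 4 lists, in the order given, were 0.09, -0.00063, -0.10 and 0.12 for clone A1, and 0.01, -0.07, 0.05 and 0.10 for clone A4.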

How the data were processed

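RNA sequencing of 9 U2-OS libraries was analysed from the count tables that the authors deposited, which give whole-number counts for each gene, with no normalization. Reads were aligned with STAR 2.7.1a to GRCh38, per the submitters' processing notes, and the counting program and annotation are not given in the sources used here. Each table holds counts without regard to strand and for each strand, and column 3, with most of the stranded counts, was used as the sense strand, since column 4 held 5.51% to 6.42%. The 4 lines that name no gene held 44.5% to 63.6% of reads and were left out. Of 60609 identifiers, 60295 were matched to GENCODE release 44, which gave symbols, lengths and coordinates. The members and the gene lists were chosen with earlier results of these data known.

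Groups came from the titles. Genes were filtered with filterByExpr, scaled by TMM and tested with edgeR 4.0.16 (quasi-likelihood, robust) in R 4.3.3, with Benjamini-Hochberg adjustment over all 21682 genes tested and an adjusted p under 0.05 as the threshold. The NCBP2 arm was compared with vector in a fit with 2 groups and the clones in a fit with 3. Standard errors are the absolute log2 fold change over the root of the F statistic. With 29234022 to 50554080 gene counts per library, the floors given cover counting error alone, as PCR duplicates cannot be told from separate molecules. DESeq2 1.42.0 and voom (limma 3.58.1) were among the alternatives. The text names members past the threshold in any comparison. In the comparisons of clones it names up to 6 in each direction, by size of change, with unadjusted p under 0.05, average log2 CPM of at least 1 and groups that do not overlap. It also names the 2 highest and 2 lowest per complex, the paralogs, and the members that did not pass the filter. The fits were tested on simulated data. Same-letter libraries of different groups had deviations correlated between -0.10 and 0.18, and different-letter ones between -0.27 and 0.22. The letters were not taken to pair libraries, and fits with the letter as a block are given below.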

Additional observations from a re-analysis of the deposited data

Results flagged for a closer look

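NDUFA9 differed between the clones in a way that set them on opposite sides of the vector libraries. All 3 libraries of clone A1 lay above and all 3 of clone A4 below every vector library. The difference between the clones was -1.21 on the log2 scale (edgeR adjusted p 0.0736). The 40 genomic neighbours of NDUFA9 had a median of -0.83 in the same comparison, with 35 below 0. The part that position has in the difference was not tested.

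Counts on the strand opposite to a member are outside the main measurement. For 8 members that passed the filter they came to over 20% of the member's own counts, summed over the 9 libraries. NDUFB2 had 2900 such counts, or 104% of its own, and NDUFB2-AS1 and BRAF overlap it on that strand. COX20 had 9338 (27.2%) and overlaps HNRNPU there. NDUFS7 had 591 (57.6%), COX16 678 (39.9%), NDUFA3 461 (39.4%), COX15 2869 (28.8%), ATP5IF1 3022 (24.8%) and NDUFA13 17 (23.0%).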

How the results depend on the processing

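Results were recomputed under 17 alternatives. Members called in clone A1 against vector were 0 under each. The other comparisons moved from 0 to 1 called member under some of them. ATP5MC3 was called in the NCBP2 arm with voom and quality weights (1 member), and NDUFA9 was called in clone A4 against vector with DESeq2 (1 member). NDUFA9 was also called in clone A4 against clone A1 with DESeq2, with voom and with no filter on low counts (1 member each). The median log2 fold change of members ranged from -0.05 to 0.08 in the arm, 0.01 to 0.09 in clone A1, -0.07 to 0.05 in clone A4 and -0.12 to 0.03 between the clones. The sign of these medians was not stable. It turned without vector replicate C in the arm (-0.05) and without clone A1 replicate C between the clones (0.03). In clone A4 it turned with voom (-0.04), with counts without regard to strand (-0.02), and without clone A4 replicate B (-0.07), clone A4 replicate C (-0.03) or vector replicate C (-0.05). Of the 5 members followed, NDUFA9 in the arm went from -0.10 to 0.04 without clone A4 replicate C and 0.0086 without clone A4 replicate A. NDUFA8 in the arm (-0.0040, without vector replicate C) and ATP5MC3 between the clones (-0.01, without clone A4 replicate A) also turned, none of them past an unadjusted p of 0.05 in any of these fits.

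With counts taken without regard to strand, the summed level was 1044 CPM for complex I in vector, 318 for complex III in clone A4, 949 for complex IV in clone A1, 919 for complex IV in vector and 1316 for complex V in clone A1, and the cause was not tested. With the canonical transcript length, 2 of the 4 extreme members were kept in complex I and 2 of 4 in complex IV.

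With the replicate letter as a block, 0 members were called in each of the 4 comparisons, while all genes called came to 13, 38, 53 and 51 against 4, 14, 25 and 35 without it. Members at an unadjusted p under 0.05 ranged, leaving out each library in turn, from 0 (without vector replicate A) to 4 (without clone A4 replicate B) in the arm, or 0% and 4.55% against 3.66% and 6.48% of all genes in the same fits, and from 1 to 3 (without clone A1 replicate C) in clone A1, the latter 3.41% against 8.77%. For clone A4 they ranged from 1 to 6, the latter without its replicate B (6.82% against 6.29%). Between the clones they ranged from 1 without clone A1 replicate B (1.14% against 6.49%) to 10 without clone A4 replicate B (11.4% against 7.12%). Depth limits NDUFA13, at 74 counts, and the members that did not pass the filter. NDUFA13 and NDUFA7 also share exon bases with other genes on the same strand, where reads may go uncounted.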
